A study of Homo sapiens with 24 samples.

Results

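The transcripts of the 3 oxygen-regulated alpha subunits of hypoxia-inducible factor (HIF1A for HIF-1α, EPAS1 for HIF-2α and HIF3A for HIF-3α), of the beta subunits ARNT and ARNT2 and of the feedback inhibitor CITED2 were examined. These 6 genes, of 23106 counted, were chosen by their role in the pathway and not by a measured value. Earlier results of these data were known when the genes were chosen. Gene counts came from polyadenylated RNA of 4 established cancer cell lines, namely T47D from breast, PC3 from prostate, HCT116 from colon and A549 from lung. Each line was kept in 21% oxygen (normoxia) or in 0.5% oxygen for 16 h (hypoxia), with 3 replicate libraries in each of the 8 groups and no other treatment. Cells were grown on plates without other cell types, and the culture medium differed between lines except for A549 and PC3, so a line and its medium cannot be told apart. The labels do not say whether replicates were separate cultures, so p values measure the spread between these libraries, which may be technical.

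HIF is a dimer of an alpha and a beta subunit. In oxygen, prolyl hydroxylases mark the alpha subunits for capture by the VHL ubiquitin ligase and destruction, while low oxygen lets them accumulate, pair with ARNT and bind DNA at a short core motif. HIF is known to be controlled mainly through the stability of the alpha proteins, which counts of RNA do not measure. CITED2 is itself induced by HIF in many cells and competes with HIF-1α for the coactivators EP300 and CREBBP, which makes it a negative feedback arm.

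The motif that HIF binds reads ACGTG or GCGTG. The 250 bases upstream of the RefSeq start are shown for CITED2, which rose in every line, and for the alpha subunits EPAS1 and HIF1A, which were called in opposite directions in A549. Capitals mark every match on either strand, and the capitals in CITED2 hold overlapping matches on both strands. The windows, from a GRCh38.p14 table of RefSeq promoters, were placed on GRCh37 by an exact match and overlap no annotated exon of their gene. CITED2 lies at chr6:139695786-139696035 on the minus strand, EPAS1 at chr2:46524296-46524545 on the plus strand and HIF1A at chr14:62161981-62162230 on the plus strand.
CITED2: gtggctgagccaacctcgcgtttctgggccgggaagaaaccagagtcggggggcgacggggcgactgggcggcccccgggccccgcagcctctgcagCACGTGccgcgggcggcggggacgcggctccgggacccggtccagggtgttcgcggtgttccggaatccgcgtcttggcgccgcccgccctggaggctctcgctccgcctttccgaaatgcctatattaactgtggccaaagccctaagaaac
EPAS1: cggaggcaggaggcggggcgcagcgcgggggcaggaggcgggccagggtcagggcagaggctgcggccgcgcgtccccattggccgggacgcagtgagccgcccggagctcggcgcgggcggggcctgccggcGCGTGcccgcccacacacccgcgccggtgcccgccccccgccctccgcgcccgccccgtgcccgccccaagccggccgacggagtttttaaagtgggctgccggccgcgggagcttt
HIF1A: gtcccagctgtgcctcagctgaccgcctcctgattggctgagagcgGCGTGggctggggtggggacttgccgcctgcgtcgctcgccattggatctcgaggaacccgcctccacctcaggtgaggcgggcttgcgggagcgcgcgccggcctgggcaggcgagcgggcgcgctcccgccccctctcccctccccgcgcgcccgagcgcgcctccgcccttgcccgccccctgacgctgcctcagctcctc
The first matched base lay at −153 from the first start in CITED2, at −117 in EPAS1 and at −204 in HIF1A. HIF3A had 3 matches upstream of its first start. ARNT had 0, in a window that overlaps its own exons over 109 bases, and ARNT2 had no window to examine. The table holds further starts inside 3 of these genes, not shown, where the windows overlap exons of the gene: CITED2 had 1 match at each of its other two, and HIF1A and HIF3A had 0. Across all 35116 windows of this length in the table, 43.2% held the motif, so a match describes these letters only.

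Library totals ranged from 22698584 to 62850747 counts, and the shallowest were PC3 normoxia 1 and 3 and HCT116 hypoxia 3. Levels are given as CPM, each count divided by its library's effective size (TMM over all 24 libraries), with 3 counts as the floor of a library (0.0436 to 0.132 CPM). Folds come from a separate edgeR quasi-likelihood fit of each line, whose own scaling lowered log2 fold changes by 0.01 in A549, 0.05 in PC3, 0.08 in T47D and 0.12 in HCT116 relative to this common scale. A gene was called where its Benjamini-Hochberg adjusted p over all genes tested was under 0.05 and its fold over 1.2. The oxygen labels were checked with EGLN3, CA9, ADM, VEGFA and BNIP3, known targets of HIF, and all 5 rose in hypoxia in all 4 lines. In 1 fit of the 24 libraries, ADM (adjusted p = 0.0864) and VEGFA (0.0653) lost their calls in PC3 and 3 of the 5 kept them there. T47D expressed ESR1 (108 to 177 CPM) and PGR (534 to 952 CPM) and PC3 expressed HOXB13 (70.6 to 127 CPM), but KLK3 was at 0 in PC3. In HCT116, CDX2 was at 10.2 to 23.1 CPM while CDX1, VIL1, LGALS4 and CDH17 stayed under 0.14 CPM, and in A549 NKX2-1, SFTPB and SFTPC stayed under 0.11 CPM and NAPSA under 0.67 CPM, while ALDH1A1 was at 5161 to 8048 CPM. The blood markers CD3E and HBB and the endothelial markers CDH5, TEK and VWF were under 0.56 CPM in all libraries, while PECAM1 (0.704 to 2.81 CPM) and the blood marker PTPRC (0.179 to 0.301 CPM, 6 to 17 counts) were above the floor in all libraries of PC3. In the other lines PECAM1 held at most 4 counts and PTPRC at most 1. VWF was above the floor in all libraries of HCT116 (0.0719 to 0.555 CPM, 4 to 29 counts).

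Hypoxia moved the subunit transcripts in different directions. CITED2 rose in all 4 lines, EPAS1 rose in 3 lines and HIF1A fell in 2 lines. Of the 6 genes, 5 passed the filter on low counts in each line, and HIF3A did not in any. In A549, 3 of these 5 rose and 1 fell, where 17.6% of all genes tested rose and 17.8% fell. In HCT116, 4 rose, against 23.3% of all genes, and 0 fell by edgeR, against 27.0%. In PC3, 2 rose, against 16.6%, and 0 fell by edgeR, against 15.7%. DESeq2 also called 0 lower in both lines, and at an unadjusted p under 0.05 the numbers were 1 in HCT116 and 0 in PC3. In T47D, 1 rose and 1 fell, against 6.55% and 6.69% of all genes. These shares rest on single libraries in 3 lines. Leaving out any one T47D library moved the calls over all genes by over 1.5 times, from 922 higher and 942 lower to between 180 and 19 (without T47D normoxia 1) and 1549 and 1756 (without T47D hypoxia 3). In PC3, leaving out hypoxia 1, 2 or 3 or normoxia 1 did so, from 2237 and 2109 down to 1308 and 875 without hypoxia 1, and in A549 leaving out hypoxia 2 or normoxia 2 did so for the lower genes, from 2476 to 1533 and 1467. All hypoxic libraries lay above all normoxic ones for 4 genes in A549 and 4 in HCT116, 2 in PC3 and 3 in T47D, where the shares over all genes were 23.6%, 32.8%, 28.4% and 19.0%. They lay below for 1 gene in A549 and 1 in T47D, where the shares were 24.3% and 13.3%, and for 0 genes in HCT116 and PC3 (27.6% and 22.2%). Scaling to library totals shifted the median of all genes to −0.13 in A549 and −0.12 in T47D and the split of calls from 2452 higher and 2476 lower to 1778 and 3461 in A549 and from 922 and 942 to 666 and 1412 in T47D, and kept each call on the 5 genes. With the replicate number as a block, T47D had 1281 genes called higher and 1485 lower, and again the same calls on the 5 genes. With 5 genes, these counts describe the genes and are no test of them as a group. As CPM is a share of all RNA counted, fewer expressing cells and less RNA per cell cannot be told apart.

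**Figure D1:**
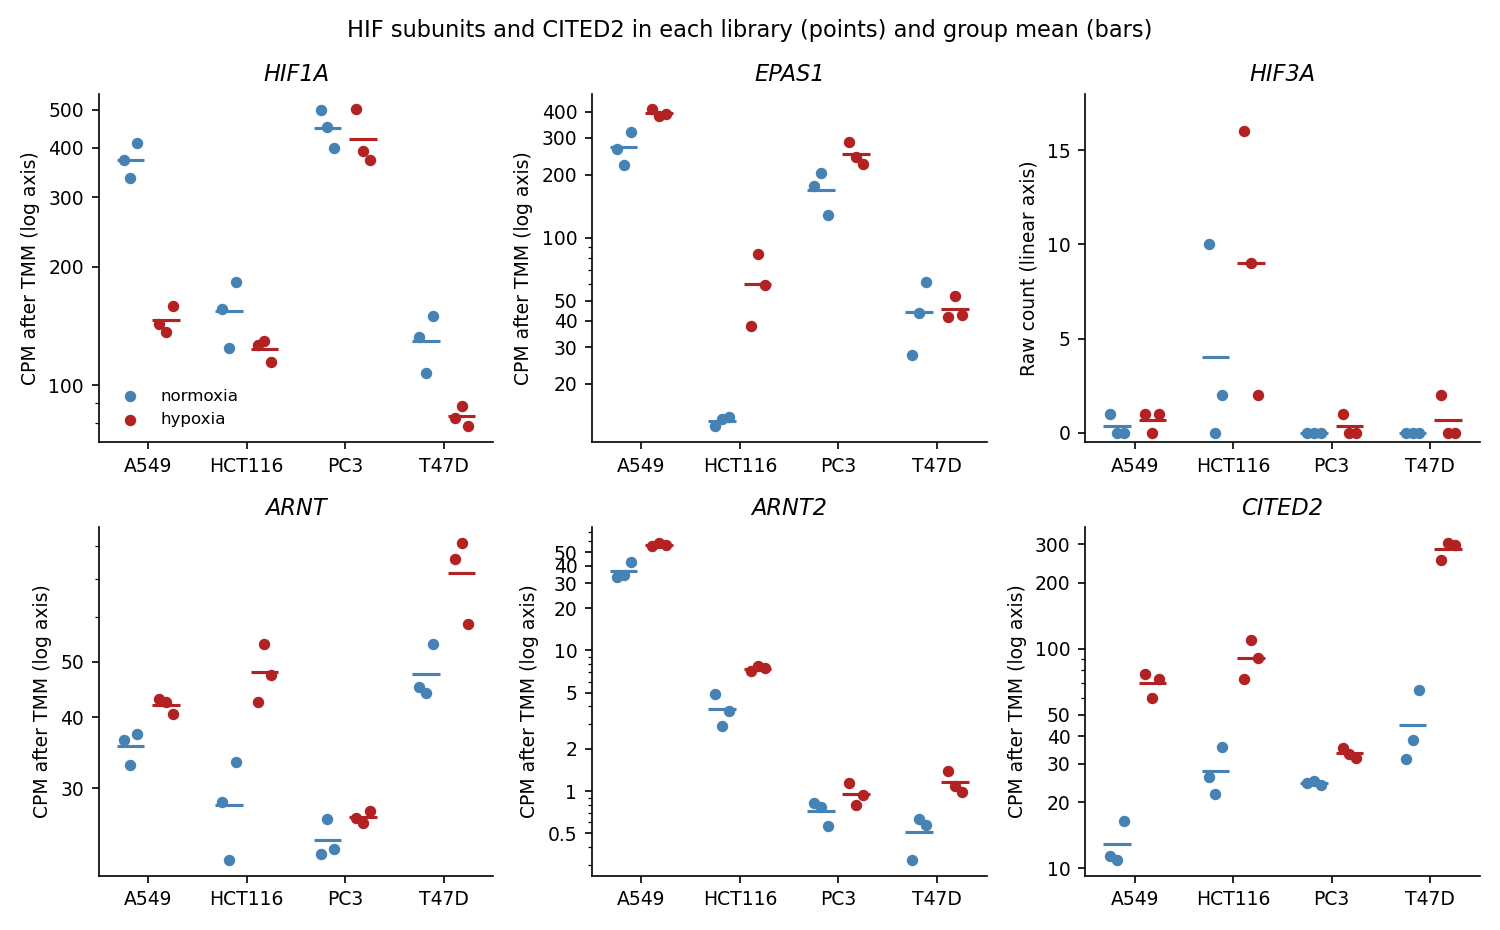
Levels of the 6 genes in each library (points) with group means (bars), normoxia in blue and hypoxia in red, as CPM on log axes and as raw counts on a linear axis for HIF3A. CITED2 points of hypoxia lie above those of normoxia in all 4 lines, HIF1A points of hypoxia lie below those of normoxia in A549 and T47D, and HIF3A stayed at or under 16 counts.

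HIF1A, on chromosome 14 (GRCh37 62162231 to 62214977, plus strand, 15 exons), encodes the alpha subunit present in most cells. In A549, its level was 372, 335 and 411 CPM in the 3 normoxic libraries and 143, 137 and 158 CPM in the 3 hypoxic ones. The hypoxic libraries all lay below the normoxic ones. The log2 fold change was −1.36 ± 0.12 (SE, n = 3 against 3, edgeR adjusted p = 9.69e-06), so that the level in normoxia was 2.56-fold that in hypoxia. This change was larger in size than those of 96.3% of the genes tested in A549.

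In T47D, HIF1A was at 132, 107 and 149.7 CPM in normoxia and at 82.7, 88.5 and 78.6 CPM in hypoxia. Again no hypoxic library reached the lowest normoxic one, and the log2 fold change was −0.72 ± 0.20 (edgeR adjusted p = 0.0322). That call rests on the full set of libraries. Leaving out any of 5 of the 6 libraries, all but T47D hypoxia 3, ended it, with log2 fold changes between −0.83 and −0.63 over the 6 fits and an adjusted p of up to 0.156.

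HCT116 had 156, 124 and 183 CPM of HIF1A in normoxia and 127, 129 and 114 CPM in hypoxia. These ranges overlapped, and the log2 fold change of −0.44 ± 0.19 was not called (edgeR adjusted p = 0.0743). Without HCT116 normoxia 2, the lowest normoxic library, it was −0.50 with an adjusted p of 0.0358. In PC3, HIF1A was at 500.3, 451 and 401 CPM in normoxia and at 501, 393 and 373 CPM in hypoxia, with a log2 fold change of −0.14 ± 0.13 (edgeR adjusted p = 0.415). HIF1A exons overlap those of the antisense genes HIF1A-AS1 over 133 bases and HIF1A-AS3 over 299 bases. Neither has counts of its own under that name and the strand setting of the counting is not given in the sources used here, so their reads cannot be told apart from those of HIF1A there.

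EPAS1, on chromosome 2 (46520806 to 46613836, plus strand, 16 exons), encodes HIF-2α, the alpha subunit best known from endothelium, lung and kidney. It rose in A549, HCT116 and PC3. In HCT116, it was at 12.5, 13.6 and 13.96 CPM in normoxia and at 37.7, 83.6 and 59.5 CPM in hypoxia. All hypoxic libraries lay above the normoxic ones, and they differed more among themselves than the normoxic ones did. The log2 fold change was 2.049 ± 0.25 (edgeR adjusted p = 1.08e-04), a 4.14-fold increase.

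The A549 level of EPAS1 was 267, 224 and 321 CPM in normoxia and 411, 383 and 392 CPM in hypoxia, a 1.46-fold increase (log2 0.54 ± 0.13, edgeR adjusted p = 0.00765). PC3 had 176, 204 and 129 CPM in normoxia and 286, 243 and 226 CPM in hypoxia, a 1.44-fold increase (log2 0.52 ± 0.15, edgeR adjusted p = 0.0255). The states did not overlap in either line. The call in PC3 was lost without PC3 hypoxia 1 (log2 0.42, adjusted p = 0.101), PC3 hypoxia 2 (0.55, 0.0638) or PC3 normoxia 1 (0.55, 0.0623). In 1 fit of the 24 libraries the calls in A549 (0.55, adjusted p = 0.128) and PC3 (0.57, 0.149) were both lost. In T47D, EPAS1 was at 27.3, 43.5 and 61.4 CPM in normoxia and at 41.9, 52.8 and 42.6 CPM in hypoxia. There the hypoxic libraries lay inside the normoxic range (log2 −0.02 ± 0.25, edgeR adjusted p = 0.972).

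HIF3A, on chromosome 19 (46800299 to 46846690, plus strand), encodes an alpha subunit with several isoforms, some of which lack the transactivation domain. Its raw counts in HCT116 were 10, 0 and 2 in normoxia and 16, 9 and 2 in hypoxia. In the other 3 lines no library held more than 2 counts, and all 3 normoxic libraries of PC3 and of T47D held 0. As 3 counts are the floor, HIF3A RNA was above it in 3 libraries of HCT116 only, and no fold is given. A count of 0 covers counting error only and leaves a level of up to 0.124 CPM in the shallowest of these libraries.

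ARNT, on chromosome 1 (150782189 to 150849184, minus strand, 22 exons), encodes HIF-1β, the usual partner of all alpha subunits and of the aryl hydrocarbon receptor. It rose in HCT116, from 28.3, 22.4 and 33.3 CPM to 42.5, 53.8 and 47.4 CPM, a 1.58-fold increase (log2 0.66 ± 0.19, edgeR adjusted p = 0.0122). In A549, it was at 36.5, 32.9 and 37.3 CPM in normoxia and at 43.0, 42.5 and 40.5 CPM in hypoxia (log2 0.23 ± 0.10, edgeR adjusted p = 0.0972). T47D had 45.1, 44 and 53.8 CPM in normoxia and 75.8, 81.0 and 58.3 CPM in hypoxia (log2 0.51 ± 0.19, edgeR adjusted p = 0.0977). The hypoxic libraries lay above the normoxic ones in both lines without the change being called, and without T47D hypoxia 3 the T47D value was 0.64 with an adjusted p of 0.0210, and in 1 fit of the 24 libraries it was 0.59 with an adjusted p of 0.00618. In PC3, ARNT was at 22.9, 26.5 and 23.4 CPM in normoxia and at 26.5, 26.1 and 27.4 CPM in hypoxia, overlapping ranges (log2 0.08 ± 0.10, edgeR adjusted p = 0.530).

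ARNT2, on chromosome 15 (80696692 to 80890274, plus strand, 19 exons), encodes a close relative of ARNT that is best known from brain and kidney and can also pair with alpha subunits. It rose 1.54-fold in A549, from 33.4, 34.3 and 42.4 CPM to 55.4, 58.2 and 56.3 CPM (log2 0.62 ± 0.12, edgeR adjusted p = 0.00200). In HCT116 it rose 1.77-fold, from 4.93, 2.88 and 3.72 CPM to 7.09, 7.72 and 7.45 CPM (log2 0.82 ± 0.26, edgeR adjusted p = 0.0187). All hypoxic libraries of both lines lay above the normoxic ones. PC3 held 19 to 53 counts of ARNT2 per library and T47D 14 to 86, where the log2 fold changes of 0.36 ± 0.33 and 1.08 ± 0.45 were not called (edgeR adjusted p = 0.417 and 0.125). In 1 fit of the 24 libraries the T47D change was called (1.14, adjusted p = 0.00175). In T47D the CPM of 0.325, 0.639 and 0.573 in normoxia still lay below the 1.39, 1.09 and 0.988 of hypoxia. Exons of ARNT2 also overlap unnamed noncoding genes on the other strand, over 75 to 148 bases each.

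CITED2, on chromosome 6 (139692944 to 139695785, minus strand, 2 exons), was the one gene of the 6 called in every line. In T47D, it was at 31.7, 38.5 and 64.7 CPM in normoxia and at 255, 304 and 297 CPM in hypoxia. This 6.05-fold increase (log2 2.60 ± 0.26, edgeR adjusted p = 7.32e-05) exceeded in size the changes of 99.1% of the genes tested in T47D. In A549, CITED2 rose 5.40-fold, from 11.4, 10.9 and 16.4 CPM to 76.7, 60.0 and 73.0 CPM (log2 2.43 ± 0.16, edgeR adjusted p = 1.41e-06). HCT116 rose 3.02-fold, from 26.0, 21.9 and 35.8 CPM to 73.2, 109.6 and 91.1 CPM (log2 1.60 ± 0.22, edgeR adjusted p = 1.63e-04). In PC3 the increase was 1.32-fold, from 24.6, 24.9 and 23.9 CPM to 35.5, 33.2 and 32.0 CPM (log2 0.40 ± 0.09, edgeR adjusted p = 0.0110). In each line the lowest hypoxic library lay above the highest normoxic one, and no single library left out ended a call. In 1 fit of the 24 libraries, the PC3 change was not called (0.46, adjusted p = 0.195).

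**Figure D2:**
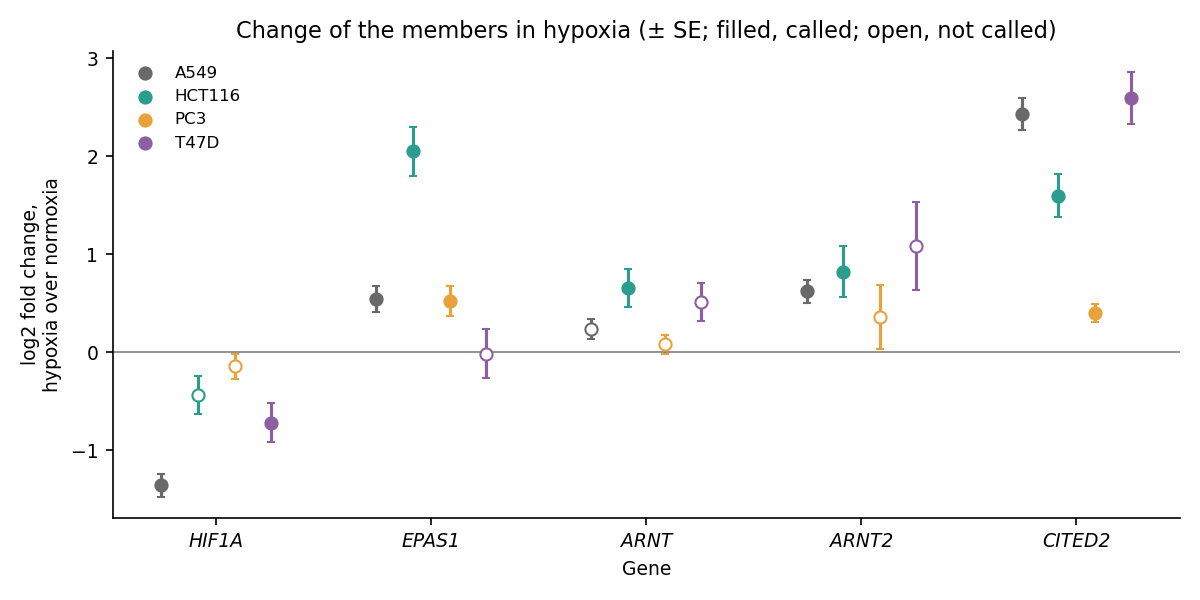
Log2 fold change in hypoxia over normoxia of the 5 genes tested, by line and with the SE from the edgeR fit of each line, filled where called and open where not. CITED2 is filled in all 4 lines from 0.40 in PC3 to 2.60 in T47D, EPAS1 is highest in HCT116 at 2.049, and HIF1A lies at or under −0.14 in every line.

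Whether the response to hypoxia differed between lines was tested as the interaction of line and oxygen state in 1 edgeR fit of the 24 libraries. It was called for 3 of the 5 genes, where 18.3% of the 16089 genes tested were called. CITED2 had the smallest adjusted p (1.27e-04), followed by EPAS1 (0.00129) and HIF1A (0.00271). ARNT (0.0801) and ARNT2 (0.309) were not called, which does not show that their responses were alike. Between single pairs of lines, the only ARNT difference called was HCT116 over PC3, by 0.64 ± 0.21 (edgeR adjusted p = 0.0440). All other pairs had an adjusted p of 0.0839 or more for ARNT. For each pair of lines the adjustment ran over genes and not over pairs.

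For CITED2, the log2 change in PC3 was smaller than in A549 by 1.98 ± 0.31 (edgeR adjusted p = 8.96e-04) and than in HCT116 by 1.25 ± 0.31 (adjusted p = 0.00998). PC3 minus T47D was −2.21 ± 0.31 (adjusted p = 1.26e-04). HCT116 minus T47D was −0.95 ± 0.31, close to the threshold (adjusted p = 0.0497). The EPAS1 change was larger in HCT116 than in PC3 by 1.60 ± 0.35 (edgeR adjusted p = 0.00503) and than in T47D by 2.12 ± 0.35 (adjusted p = 8.02e-04). Against A549, whose change minus that of HCT116 was −1.63 ± 0.35, the adjusted p was 0.00500. The fall of HIF1A was larger in A549 than in HCT116 (A549 minus HCT116, log2 −1.03 ± 0.23, edgeR adjusted p = 0.00568) and in PC3 (A549 minus PC3, −1.26 ± 0.23, adjusted p = 0.00430). Between A549 and T47D, the difference of −0.71 ± 0.23 was not called (adjusted p = 0.114). Across all genes, differences between pairs of lines were called for 16.7% (A549 and HCT116), 0.758% (A549 and PC3), 2.11% (A549 and T47D), 14.9% (HCT116 and PC3), 9.07% (HCT116 and T47D) and 2.25% (PC3 and T47D).

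In normoxia the 4 lines started from different levels. All 5 genes differed between lines in an edgeR fit of the 12 normoxic libraries, as did 93.5% of the genes tested. Between pairs of lines, the shares of genes called in this fit were 64.9% (A549 and HCT116), 60.0% (A549 and PC3), 66.6% (A549 and T47D), 65.6% (HCT116 and PC3), 68.5% (HCT116 and T47D) and 67.8% (PC3 and T47D). The widest spread was that of ARNT2, with a mean of 36.7 ± 4.97 CPM (SD, n = 3) in A549, 3.84 ± 1.03 in HCT116, 0.723 ± 0.138 in PC3 and 0.512 ± 0.166 in T47D. A549 exceeded HCT116 9.52-fold (edgeR adjusted p = 1.15e-08) and HCT116 exceeded PC3 5.32-fold (adjusted p = 1.39e-06), while PC3 and T47D did not differ beyond their spread (adjusted p = 0.197).

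EPAS1 was highest in A549 (270.4 ± 48.6 CPM), followed by PC3 (169.6 ± 38.2), T47D (44.1 ± 17.0) and HCT116 (13.4 ± 0.738). Each step was called by edgeR, with adjusted p = 0.0262 from A549 to PC3, 4.43e-06 from PC3 to T47D and 1.61e-05 from T47D to HCT116. The step from A549 to PC3 was lost without A549 normoxia 1 (adjusted p = 0.0514) or 3 (0.106) and without PC3 normoxia 1 (0.0552) or 3 (0.117). HCT116, the line with the lowest normoxic EPAS1, was the one with the largest fold increase, and its hypoxic mean of 60.3 ± 22.98 CPM remained below the normoxic means of A549 and PC3.

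HIF1A was at 450.8 ± 49.7 CPM in PC3 and 373 ± 38.2 in A549, which did not differ beyond their spread (edgeR adjusted p = 0.218). HCT116 (154 ± 29.3) and T47D (129.6 ± 21.4) were lower and did not differ from each other (adjusted p = 0.242), and A549 exceeded HCT116 2.41-fold (adjusted p = 2.27e-05). ARNT had the narrowest range, from 47.6 ± 5.37 CPM in T47D through 35.6 ± 2.33 in A549 and 28.0 ± 5.46 in HCT116 to 24.3 ± 1.94 in PC3. T47D exceeded A549 (edgeR adjusted p = 0.0294), a call lost without A549 normoxia 1 (0.0625) or 2 (0.0901) or T47D normoxia 3 (0.107). A549 and HCT116 (0.0727) and HCT116 and PC3 (0.273) did not differ beyond their spread with all libraries, though A549 and HCT116 did without HCT116 normoxia 3 (0.0213) and HCT116 and PC3 did without HCT116 normoxia 2 (0.0407).

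CITED2 was highest in T47D (44.9 ± 17.4 CPM), then in HCT116 (27.9 ± 7.18) and PC3 (24.5 ± 0.548), and lowest in A549 (12.9 ± 3.01). T47D exceeded HCT116 (edgeR adjusted p = 0.0208) and PC3 exceeded A549 (adjusted p = 0.00445), while HCT116 and PC3 did not differ beyond their spread (adjusted p = 0.517). The call between T47D and HCT116 was lost without HCT116 normoxia 1 (adjusted p = 0.0597) or 2 (0.0814) or T47D normoxia 3 (0.189). A549, with the lowest CITED2 in normoxia, reached 69.9 ± 8.78 CPM in hypoxia, above the 33.6 ± 1.79 CPM of PC3.

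Levels of different genes were compared per kilobase of merged exons. In normoxia, HIF1A had the highest level of the 6 genes in every line, from 25.2 ± 4.16 CPM per kilobase in T47D to 87.5 ± 9.65 in PC3. EPAS1 was second in A549 (37.1 ± 6.66) and PC3 (23.3 ± 5.24), while CITED2 was second in HCT116 (10.9 ± 2.80) and T47D (17.5 ± 6.80). In hypoxia, CITED2 was the highest of the 6 in T47D (111 ± 10.4 CPM per kilobase) and in HCT116 (35.6 ± 7.11), EPAS1 was the highest in A549 (54.2 ± 1.96), and HIF1A stayed the highest in PC3 (82.0 ± 13.4).

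The balance of the 2 alpha subunits was followed as the EPAS1 share of EPAS1 plus HIF1A per kilobase. In A549 the share was 33.6%, 32.1% and 35.5% in the normoxic libraries and 67.0%, 66.4% and 63.6% in the hypoxic ones, so EPAS1 became the more abundant transcript. In HCT116 it went from 5.38%, 7.17% and 5.12% to 17.4%, 31.4% and 26.9%. PC3 had 19.9%, 24.2% and 18.5% in normoxia and 28.7%, 30.4% and 29.96% in hypoxia. In T47D the share was 12.8%, 22.3% and 22.5% in normoxia and 26.3%, 29.7% and 27.7% in hypoxia. In each line all hypoxic shares lay above all normoxic ones, also in T47D, where EPAS1 itself was not called and HIF1A fell.

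Over the 4 lines, the log2 ratio of EPAS1 to HIF1A counts within a library was higher in hypoxia by 1.44 on average (exact permutation of oxygen states within lines, two-sided p = 1.25e-05, the smallest these 160000 assignments give, and 1.88e-05 adjusted over 3 ratios). The ratio rose 5.30-fold in HCT116, 3.76-fold in A549, 1.68-fold in T47D and 1.61-fold in PC3. Within 1 line the exact permutation test of 3 against 3 cannot go below 0.1, which was its value in all 4 lines. The ratio of CITED2 to HIF1A rose by 2.43 on the log2 scale (adjusted p = 1.88e-05 by the same exact test), from 1.47-fold in PC3 to 13.9-fold in A549. As the lines respond to hypoxia with different sizes of change, these means over lines describe the 4 lines examined.

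**Figure D3:**
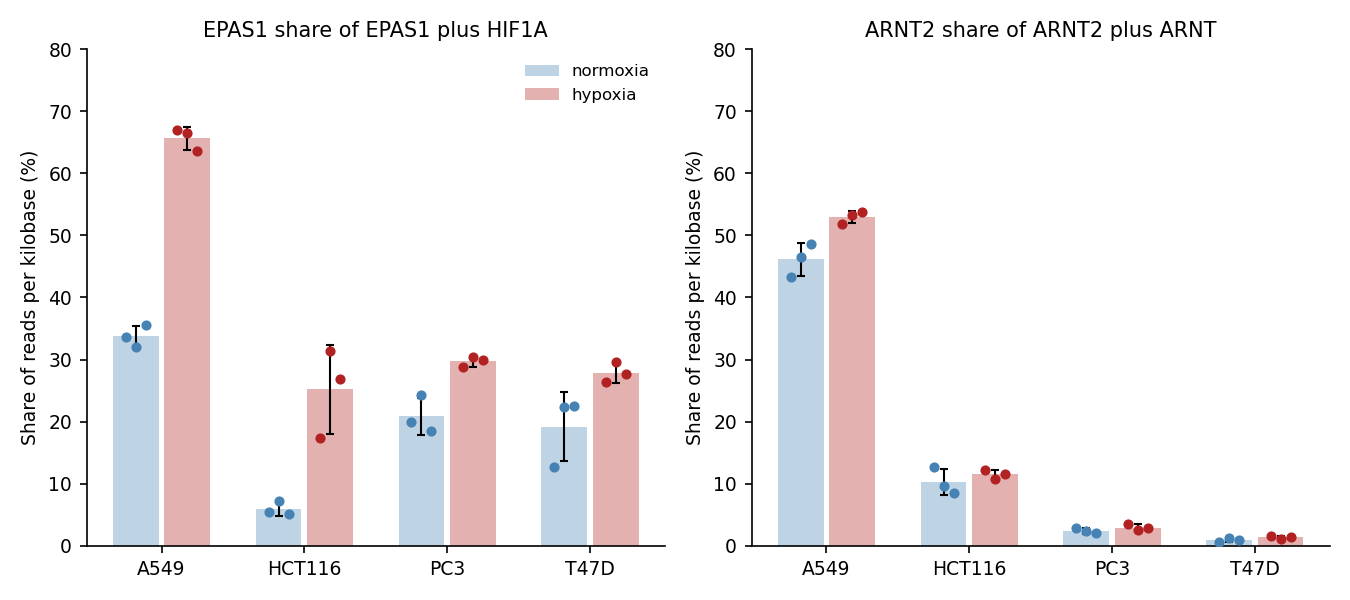
Share of EPAS1 in EPAS1 plus HIF1A (left) and of ARNT2 in ARNT2 plus ARNT (right), in percent of counts per kilobase of merged exons, with bars for group means, whiskers for the SD and points for libraries. The EPAS1 share rises from 33.7% to 65.7% in A549 and is under 32% in all libraries of the other lines, and ARNT2 exceeds 15% only in A549.

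The beta subunits shifted less. ARNT2 made up 46.1% ± 2.70 of ARNT2 plus ARNT per kilobase in normoxic A549 cells and 52.9% ± 1.01 in hypoxic ones, with no overlap of libraries. It made up 10.3% ± 2.14 and 11.5% ± 0.770 in HCT116, 2.42% ± 0.473 and 2.91% ± 0.515 in PC3 and 0.891% ± 0.30 and 1.34% ± 0.205 in T47D, where the states overlapped. The log2 ratio of ARNT2 to ARNT counts was higher in hypoxia by 0.37 over the 4 lines (exact permutation adjusted p = 0.00243). Without replicate 3 of every group it was 0.31 and the adjusted p 0.0617.

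Among genes that act on the pathway, the prolyl hydroxylases EGLN1 and EGLN3, which target the alpha subunits for destruction, and the pyruvate kinase PKM, a glycolytic enzyme that also binds HIF-1α, were called higher in hypoxia in all 4 lines. EGLN1 rose by a log2 fold change of 0.81 ± 0.11 in A549, 2.25 ± 0.21 in HCT116, 1.09 ± 0.12 in PC3 and 2.37 ± 0.21 in T47D (edgeR adjusted p of at most 8.05e-04). EGLN3 rose by 5.15 ± 0.15, 3.28 ± 0.26, 1.5 ± 0.38 and 3.98 ± 0.25 in the same order, and its call in PC3 was lost without PC3 hypoxia 1 (1.01, adjusted p = 0.0577) or PC3 normoxia 1 (1.30, 0.0513). PKM rose by 1.0 ± 0.12, 1.84 ± 0.27, 0.51 ± 0.10 and 2.01 ± 0.29, and its call in PC3 was lost in 1 fit of the 24 libraries (0.56, adjusted p = 0.123). EGLN1, PKM and ADM belong to a signature that the study drew in part from these libraries, so their rise is no independent evidence. VHL, which recognizes the hydroxylated alpha subunits, was not called in any line, with its lowest adjusted p in A549 (log2 −0.68 ± 0.27, edgeR adjusted p = 0.0707). VHL was called in A549 without A549 hypoxia 1 (−0.98, adjusted p = 0.0160), with no filter on low counts (−0.68, 0.0274), in 1 fit of the 24 libraries (−0.68, 0.0418) and when replicate numbers were blocked (−0.78, 0.00326).

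In the list of 14 genes of HIF hydroxylation and degradation, 5 rose and 2 fell in A549, 4 rose and 5 fell in HCT116, 4 rose and 2 fell in PC3, and 3 rose in T47D. Over all genes tested, 17.6% rose and 17.8% fell in A549, 23.3% and 27.0% in HCT116, 16.6% and 15.7% in PC3 and 6.55% and 6.69% in T47D, so that the list of 14 in HCT116 lay near those shares. Its median log2 fold change was 0.13, 0.13, 0.02 and 0.15 in this order, beside −0.01, −0.03, −0.01 and −0.01 over all genes tested. Many of these calls were lost when 1 library was left out. Kept in all 6 such fits, and named for that after their values were seen, were EGLN1, EGLN3 and the ubiquitin ligase adaptor WSB1 in A549, EGLN1, EGLN3, OS9 and the ubiquitin ligase SIAH2 (higher) and the VHL complex subunits TCEB1 and RBX1 (lower) in HCT116, EGLN1 in PC3, and EGLN1 and EGLN3 in T47D.

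In the list of 13 coactivators, chaperones and modifiers, 4 rose and 1 fell in A549, 9 rose and 1 fell in HCT116, 5 rose in PC3, and 1, PKM, rose in T47D, beside the same shares over all genes. Kept whichever 1 library was left out were 1 of the 4 in A549, 5 of the 9 in HCT116, 4 of the 5 in PC3 and the 1 in T47D, and 0 of those that fell in HCT116. The median log2 fold change was 0.26, 0.76, 0.33 and 0.27. EP300 and CREBBP, the coactivators for which CITED2 competes, were looked at for that role after their values were seen. CREBBP rose by 1.33 ± 0.31 in HCT116 and 0.89 ± 0.12 in PC3 (edgeR adjusted p = 0.00315 and 0.00172) and was at 0.46 ± 0.26 in T47D (adjusted p = 0.254). Its call in A549 (0.59 ± 0.20, adjusted p = 0.0399) was lost without any of A549 hypoxia 1 or 2 or A549 normoxia 1 or 2, with an adjusted p of up to 0.132, with library totals (0.0923) and in 1 fit of the 24 libraries (0.156). EP300 rose by 0.68 ± 0.11 in PC3 (edgeR adjusted p = 0.00326), and by 0.70 ± 0.19 in A549 and 0.80 ± 0.27 in HCT116 (adjusted p = 0.0134 and 0.0256), calls lost without A549 normoxia 1 or 2 and without HCT116 normoxia 2 or 3. In 1 fit of the 24 libraries, EP300 lost its calls in PC3 (adjusted p = 0.119) and A549 (0.0970). In T47D EP300 was at 0.44 ± 0.31 (adjusted p = 0.367). HSP90AA1, a chaperone of HIF-1α, fell in A549 by 0.92 on the log2 scale (edgeR adjusted p = 1.04e-04) and was called in no other line in these fits, and it too was singled out after its values were seen.

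**Figure D4:**
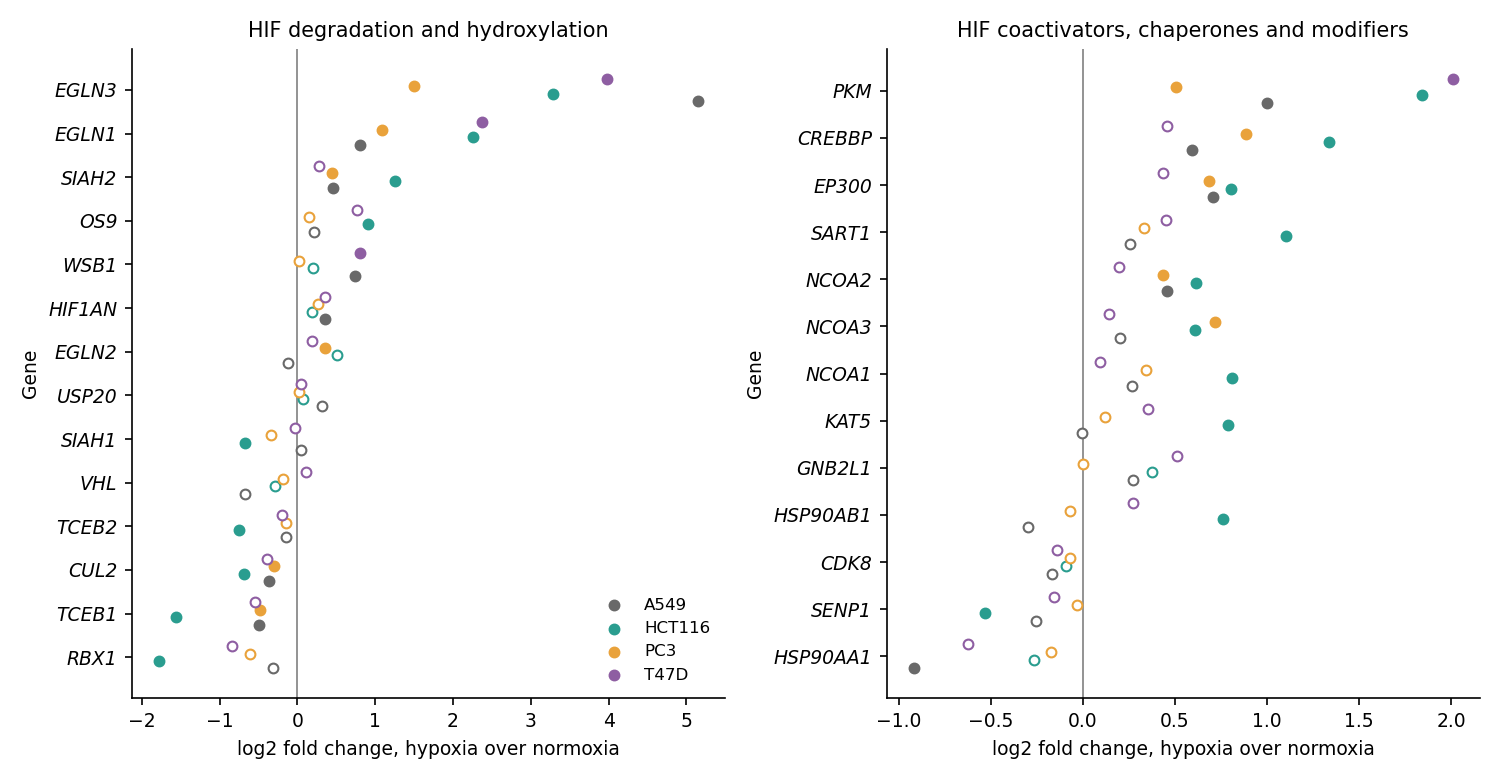
Log2 fold change in hypoxia over normoxia of the genes of HIF degradation and hydroxylation (left) and of HIF coactivators, chaperones and modifiers (right), with 1 point for each line, filled where called. EGLN3, EGLN1 and PKM are filled in all 4 lines, and TCEB1 and RBX1 reach −1.56 and −1.78 in HCT116.

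Of 11 other proteins of the bHLH-PAS class, to which the HIF subunits belong, 8 were tested in each line, and those called are named here after their values were seen. In A549 and T47D, 1 of them rose, NPAS1 in both, against 17.6% and 6.55% of all genes. The call of NPAS1 in T47D was lost without any one of the 6 libraries. It was also lost with library totals (edgeR adjusted p = 0.0846) and with a mean count of 50 or more (0.0548). In HCT116 5 rose (AHR, CLOCK, NPAS1, NPAS2 and SIM2), against 23.3% of all genes, but NPAS1 lost its call without HCT116 hypoxia 2 and SIM2 without HCT116 hypoxia 2 or normoxia 3. In PC3 2 rose (NPAS2 and ARNTL), against 16.6% of all genes. There NPAS2 lost its call without any one of the 6 libraries and with the replicate block (edgeR adjusted p = 0.0523). The NPAS2 call was also lost with library totals (0.0769) and in 1 fit of the 24 libraries (0.377). ARNTL lost its call without PC3 hypoxia 1 or 3 or PC3 normoxia 1 or 2. Of the relatives of CITED2, CITED1 was not called in any line in the separate fits, and CITED4 was called in PC3 only (log2 0.57 ± 0.19, edgeR adjusted p = 0.0412). That call was lost without PC3 hypoxia 1 or 2 or PC3 normoxia 1 or 3, with an adjusted p of up to 0.144. It was also lost with library totals (adjusted p = 0.0517) and in 1 fit of the 24 libraries (0.258).

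The genes most like each member were ranked by Pearson r over the 24 libraries among 11270 genes, after the mean of each line was subtracted. The points share line, oxygen state and depth, and r is given as a description. CITED2 was followed by SCARB1 (r = 0.98), the lactate exporter SLC16A3 (0.98) and NDRG1 (0.97). The leading genes of EPAS1 included TTC9 (0.96) and WNT7B (0.95). ARNT was followed by BBX (0.98), CBLB (0.98) and GLG1 (0.97), and ARNT2 by SORBS3 (0.96), APBB1 (0.95) and UBASH3B (0.94). For HIF1A these were RPAP3 (0.89), MARS (0.88) and HSP90AA1 (0.86). Without subtraction, where the 24 points fall into 4 lines, the leading genes were C4orf3 (0.95), VKORC1 (0.93) and GAA (0.93) for CITED2, LAMB1, ORAI2 and MGLL (all 0.98) for EPAS1, NEBL (0.97), FAM115A (0.96) and KIAA0319L (0.95) for ARNT, ZFAND5, HMOX1 and NUMBL (all 0.98) for ARNT2, and WDFY2 (0.94), WDR4 (0.93) and MTM1 (0.90) for HIF1A. No gene was among the 3 leading genes of more than 1 member in either ranking. SLC16A3, NDRG1 and C4orf3 also belong to the signature that the study drew in part from these libraries. Their likeness to CITED2 is thus no independent evidence.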

How the data were processed

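The authors trimmed reads with Trim Galore 0.3.3, aligned them to GRCh37 with HISAT2 2.05 (as the submitters' processing notes write it), removed fragments without a unique position with Picard 2.0.1 and counted fragments on UCSC genes with HTSeq 0.5.4p3 in its intersection-strict mode, whose strand setting is not given in the sources used here. Deposited values are raw counts per gene symbol, and they were grouped by the sample labels. From these counts, edgeR 4.0.16 in R 4.3.3 (filterByExpr, TMM, quasi-likelihood test) gave folds and p values in a separate fit for each line, an interaction fit of 24 libraries and a fit of the 12 normoxic libraries, after tests on simulated data. Calls required an adjusted p under 0.05 and, in the separate fits, a fold over 1.2, as in the study. Log2 levels used a prior count of 2 and ratios a pseudocount of 0.5. Exon lengths came from GENCODE, in which 20098 of 23106 symbols (87.0%) matched. Named genes were the 6 members, list genes called alike in all 4 lines, the 5 oxygen checks and the 3 genes most like each member, with others marked as chosen after their values were seen. A marker gene and a gene ranked by likeness are not reported here. Members and lists were chosen with earlier results of these data known. Alternatives were DESeq2 1.42.0, RLE size factors, library totals, genes unfiltered or with a mean count of 50 or more, a replicate block, 1 fit of 24 libraries, a pseudocount of 2, the longest transcript and each library left out. Replicate numbers come from the labels. Over genes, same-numbered libraries deviated together with r of 0.12 to 0.16 in PC3 and 0.22 to 0.33 in T47D. In A549 r was 0.05 to 0.25 and in HCT116 0.09 to 0.34. Every library correlated best with its own number in PC3 and T47D, but replicate 3 did not in A549 and HCT116. The reported fits left replicate numbers out in all 4 lines, and pairing entered only the replicate block alternative. Intervals and floors cover counting error only.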

Additional observations from a re-analysis of the deposited data

Results flagged for a closer look

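The hypoxia response of 3 genes differed between lines by the interaction of line and oxygen state in edgeR, and each such difference is tested there. The log2 fold changes given beside these adjusted p values are from the separate fit of each line. For CITED2 (adjusted p = 1.27e-04), the log2 fold changes were 2.43 in A549, 1.60 in HCT116, 0.40 in PC3 and 2.60 in T47D, all upward. For EPAS1 (adjusted p = 0.00129), they were 0.54, 2.049, 0.52 and −0.02 in the same order, with 0.054 for T47D in the interaction fit. For HIF1A (adjusted p = 0.00271), they were −1.36, −0.44, −0.14 and −0.72. Leaving out any of the 24 libraries kept these adjusted p values at or under 8.01e-04, 0.00664 and 0.0133. Groups of 3 libraries were not examined for outlying samples.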

How the results depend on the processing

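Of the results on the 5 genes (changes, their counts, interactions, normoxic steps, shares and ratios), those not named here or beside their values in the report kept their direction and side of the threshold under all alternatives. In 1 fit of 24 libraries, with a spread pooled over lines, EPAS1 in A549 (0.55) and PC3 (0.57) and CITED2 in PC3 (0.46) lost their calls, ARNT (0.59) and ARNT2 (1.14) in T47D gained them, and 0 of the 5 genes rose in PC3 and 3 in T47D; over all genes, calls went to 1427 higher and 1182 lower in A549, 867 and 425 in PC3 and 2231 and 1599 in T47D. EPAS1 in T47D, not called, turned to 0.054 in that fit and to 0.042 with the replicate block. The block changed no other call on the 5 genes in any line; in A549 and HCT116, where not every library correlated best with its own number, the pairing is not established. Among other genes of the pathway, PKM, EP300, ADM and VEGFA lost their calls in PC3 in 1 fit of 24 libraries, where 3 of the 5 oxygen checks were called, CREBBP lost its call in A549 with library totals, and VHL gained one in A549 with no filter, with the block and in 1 fit of 24 libraries. DESeq2 called the interaction of ARNT (adjusted p = 0.0481). With the longest transcript, the EPAS1 share was 35.6% and 67.5% in A549 and 31.4% and 29.6% in hypoxic PC3 and T47D, and the ARNT2 share 42.0% and 48.7% in A549 and 9.88% in hypoxic HCT116. Leaving out 1 library gave log2 ranges of −0.50 to −0.28 for HIF1A in HCT116, −0.83 to −0.63 for HIF1A in T47D, 0.37 to 0.66 for EPAS1 in PC3, −0.25 to 0.27 for EPAS1 in T47D, 0.43 to 0.64 for ARNT in T47D, −0.0071 to 0.27 for VHL in T47D and −0.032 to 0.39 for normoxic CITED2 in HCT116 minus PC3, an adjusted p of 0.0300 to 0.231 for the interaction of ARNT and, per replicate number, 0.30 to 0.49 for ARNT2 to ARNT. Of the 5 genes, 0 to 1 fell in HCT116 and in T47D and 1 to 2 rose in PC3 and in T47D. The interaction of ARNT was called without HCT116 normoxia 3 or T47D hypoxia 3. Apart from what these settings are built from, the cause of these changes was not tested. Depth limits HIF3A, at up to 16 counts, and ARNT2 in PC3 and T47D, at 14 to 86 counts a library.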
